A study of Caenorhabditis elegans with 2 samples.

Results

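The genes described here encode protein factors of translation and the enzymes that charge tRNAs. They are the protein-coding genes of Caenorhabditis elegans whose names start with eef- or eif-, or consist of 1 letter, ars- and a number. In the Ensembl release 115 annotation of the WBcel235 genome, 63 of 19973 nuclear protein-coding genes met this naming rule: 6 elongation factor genes, 25 initiation factor genes and 32 aminoacyl-tRNA synthetase genes. Names decided membership, and no measured value entered the rule. Binding of the tagged RFX transcription factor DAF-19 was mapped by chromatin immunoprecipitation and sequencing (ChIP-seq) in 1 group with 2 biological replicates. Each sample was whole L4 larvae, 48 hours old, of strain OP794, grown from L1 animals that had been starved after bleaching. OP794 carries the transgene wgIs794, a daf-19 copy fused to TY1, EGFP and 3xFLAG tags with an unc-119(+) rescue, in an unc-119(tm4063) background. The labels list no change to the native daf-19 gene, describe precipitation with an antibody against GFP (an antibody field of the labels reads daf-19) and give sonicated fragments of 200 to 800 bp. The submitters point to a possible control experiment, which was not used here.

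Translation starts when initiation factors bring the initiator tRNA and the small ribosomal subunit to an mRNA and find the start codon. eIF2 carries the initiator tRNA, eIF2B recharges eIF2 with GTP, and eIF3 is the many-subunit scaffold that binds the small subunit. Elongation factors then deliver charged tRNAs and move the ribosome along the mRNA, while each synthetase joins an amino acid to its tRNA. DAF-19 is known for the regulation of ciliary genes in sensory neurons through a promoter element called the X-box, whereas translation genes are active in every tissue.

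The deposited peak lists give each peak a signal value made by the authors, whose scaling is not stated, and a −log10 irreproducible discovery rate (IDR), a measure of how well a peak recurs. A gene was called bound when a summit with a −log10 IDR of at least 2, an IDR of 0.01 or less, lay from 1000 bp upstream to 200 bp downstream of an annotated transcript start. The list made from both replicates together holds 117986 ranked peaks, of which 996 pass this level, so many genes have a summit of low rank. The files hold peaks without read counts, so the depth of each replicate is unknown and signals are compared by rank within a list. In whole animals, strong binding in few cells and weak binding in many cannot be told apart, and the peak files allow no check of tissue or stage by marker genes. There is no second condition, so no test between samples could be made.

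Promoter sequence is shown for the called genes eif-3.B and eef-1A.1, which have strong summits outside coding sequence. The sequences cover 100 bp either side of the summit on the strand of the gene, from WBcel235, the same assembly as ce11. For eef-1A.1 the summit in its own intron, 193 bp downstream of the start, is also shown, because the call moved between these 2 summits. That window includes coding sequence of the gene. Capitals mark 2 overlapping matches to the TATA box letters TATAAA, 1 on each strand, and no X-box match was found in any of the 3 windows.
eif-3.B, II:14794973-14795173, plus strand: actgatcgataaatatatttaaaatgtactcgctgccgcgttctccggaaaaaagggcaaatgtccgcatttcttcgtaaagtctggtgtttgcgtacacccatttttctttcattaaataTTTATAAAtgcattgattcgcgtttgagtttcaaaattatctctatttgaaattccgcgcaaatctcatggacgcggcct
eef-1A.1 upstream, III:6971950-6972150, minus strand: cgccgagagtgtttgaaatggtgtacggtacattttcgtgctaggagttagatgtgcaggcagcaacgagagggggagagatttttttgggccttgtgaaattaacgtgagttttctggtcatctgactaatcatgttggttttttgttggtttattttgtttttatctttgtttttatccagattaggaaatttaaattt
eef-1A.1 intronic, III:6971419-6971619, minus strand: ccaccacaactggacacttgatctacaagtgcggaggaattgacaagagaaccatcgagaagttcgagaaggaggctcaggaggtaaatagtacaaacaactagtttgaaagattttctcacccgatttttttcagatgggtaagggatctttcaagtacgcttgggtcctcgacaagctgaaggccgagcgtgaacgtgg

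Of the 63 genes, 5 were called with both replicates together (7.94%, Wilson 95% interval 3.44 to 17.3), where 2.48% of all protein-coding genes were called. They were the elongation factor genes eef-1A.1 and eef-2 and the eIF3 subunit genes eif-3.B, eif-3.C and eif-3.G. None of the 32 synthetase genes was called (interval 0 to 10.7%, which includes the background). The intervals cover counting error only. A summit of any rank lay in the window of 49 of the 63 genes (77.8%), close to the 69.8% of all protein-coding genes. In the other list made from both replicates the same 5 genes were called, where the background was 2.24%. The peaks and signals of these 5 genes are identical in both joint lists and only the −log10 IDR values differ. The other list is therefore not an independent check.

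Calls were rarer in each replicate alone. In replicate 1 only eif-3.B was called (background 1.08%), and in replicate 2 only eif-3.C (background 0.976%). No gene was called in both of these lists (background 0.641%). By rank of signal, 4 of the 63 genes (6.35%) were at or above the 90th percentile in both replicates, namely eif-3.C, eif-3.B, eef-1A.1 and eef-2, and the background was 4.3%. The median percentile of the 63 genes was 72.2 with both replicates together, 73.1 in replicate 1 and 72.4 in replicate 2, where all genes have a median of 50 and genes without a summit share the lowest rank. Among genes with a summit, the median signal was 66.5 for these genes and 54.3 for all.

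**Figure D1:**
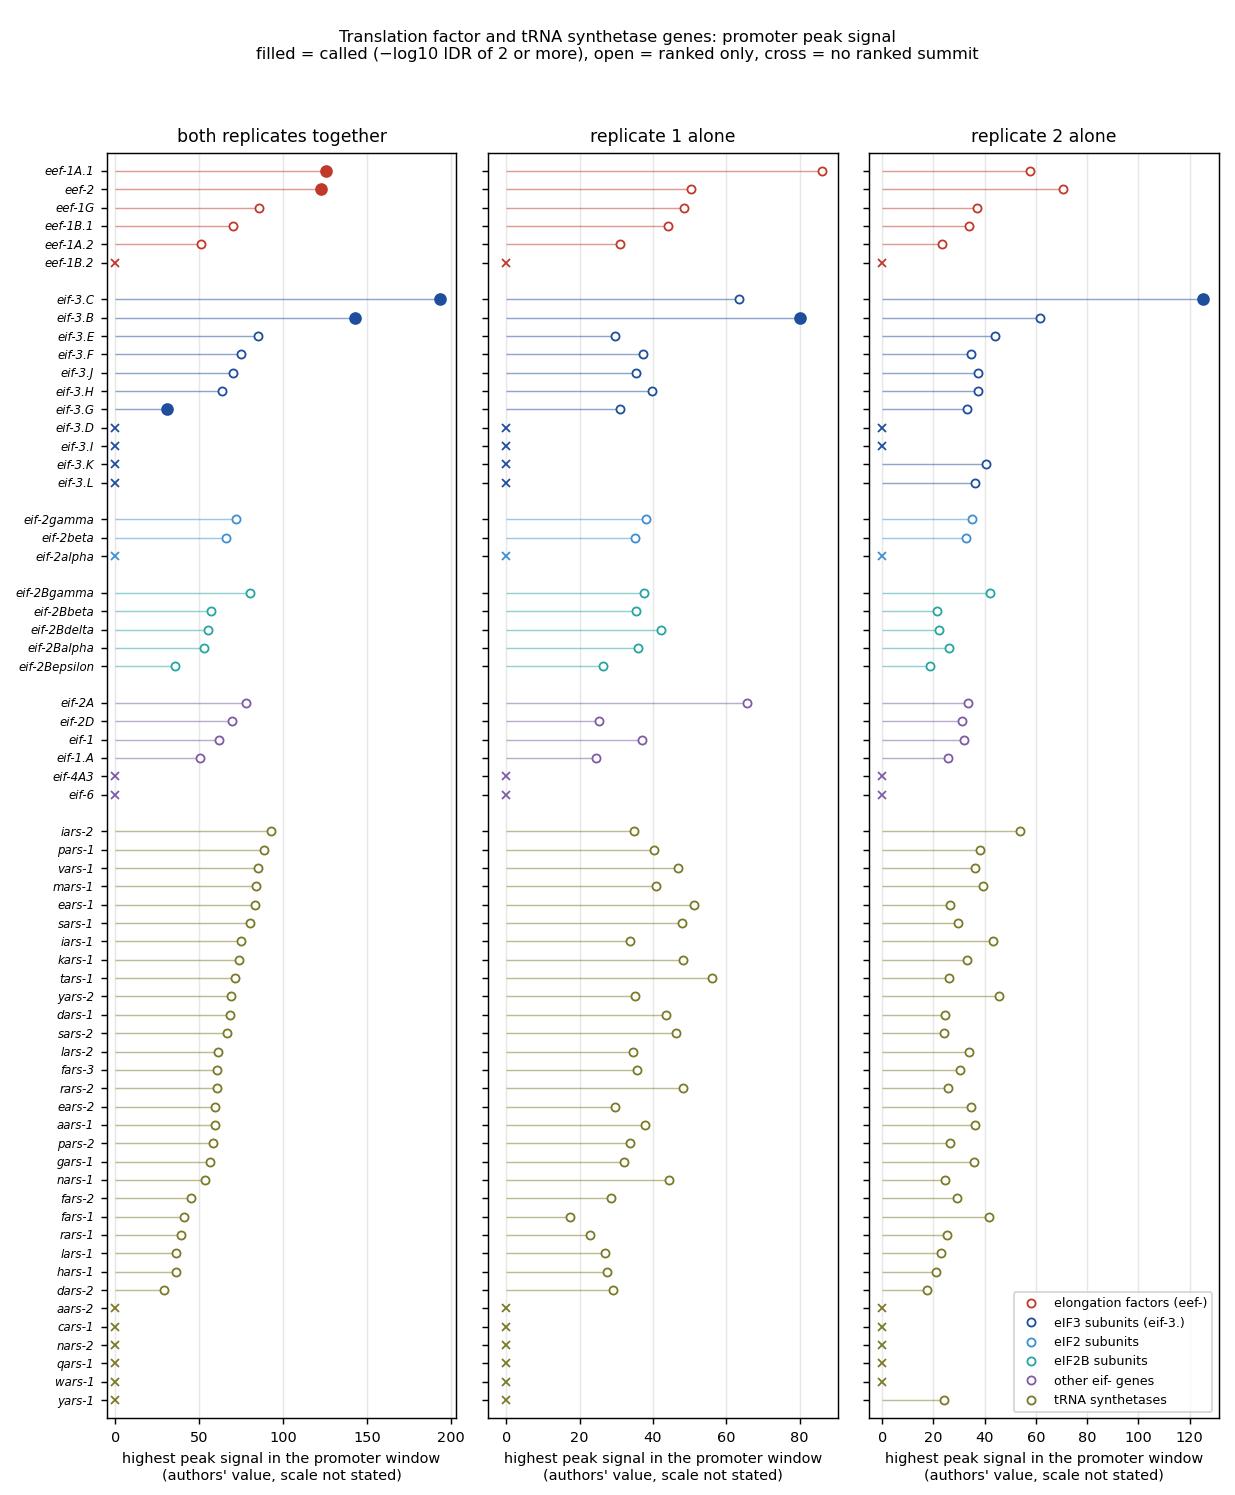
Highest peak signal in the promoter window of each of the 63 genes (horizontal axes, authors' value of unstated scale, a separate range in each panel) for both replicates together, replicate 1 and replicate 2. Filled points are called genes, open points have a ranked summit only and crosses have none. eif-3.C and eif-3.B lead the eIF3 subunits, the 26 synthetase genes with a summit lie between 28.8 and 92.6 in the joint list, and eif-3.G is filled at 30.6 because its call rests on another summit.

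Of the 6 elongation factor genes, 5 had a summit (83.3%, compared with 69.8% of all genes) and 2 were called (33.3%, Wilson interval 9.68 to 70.0, compared with 2.48%). eef-1A.1 encodes eEF1A, the GTPase that delivers charged tRNAs to the ribosome. Its upstream summit, 338 bp before the start at III:6971860-6972239, had a signal of 125 in the joint list, 86.1 in replicate 1 and 37.1 in replicate 2. Its intronic summit at III:6971329-6971708 had 103 in the joint list, 54.9 in replicate 1 and 57.8 in replicate 2. Within replicate 1 the upstream summit was the higher of the pair, and within replicate 2 the intronic summit was. The −log10 IDR was 1.64 upstream and 2.28 in the intron in the main list, but 2.41 upstream and 0.27 in the intron in the other joint list. The gene was called in each, through a different summit. Both summits also lie in the window of rfc-4, a replication factor C gene that begins 540 bp away on the other strand.

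eef-2 encodes eEF2, the GTPase that moves the ribosome by a codon. Its strongest summit lay 47 bp upstream of a start at I:9163294-9163673, with a signal of 122 in the joint list, 50.4 in replicate 1 and 70.5 in replicate 2. The joint −log10 IDR was 2.19, the lowest among the called genes, and neither replicate alone reached 2 (0.77 and 1.89). The same summit lies in the window of clsp-1, whose start is 264 bp away on the other strand. A stronger called peak, with a signal of 179 and a −log10 IDR of 3.01, lay at the other end of eef-2, 18 bp before the annotated gene end at I:9166744-9167123. It was called in replicate 1 at 83.8.

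The remaining elongation factor genes were not called. eef-1G, for the gamma subunit of the complex that exchanges the nucleotide of eEF1A, had 85.7 in the joint list, 48.5 in replicate 1 and 37.1 in replicate 2. Its −log10 IDR of 1.35 was the highest among the genes that were not called. eef-1B.1, another exchange subunit, had 70.0, 44.1 and 33.9 in the same order. The second eEF1A gene, eef-1A.2, the only member on X, had 51.2, 31.0 and 23.5, lower than eef-1A.1 in each list. A called peak of signal 105 lay outside its window, 146 bp past its 3′ end. eef-1B.2 had no summit in any list.

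**Figure D2:**
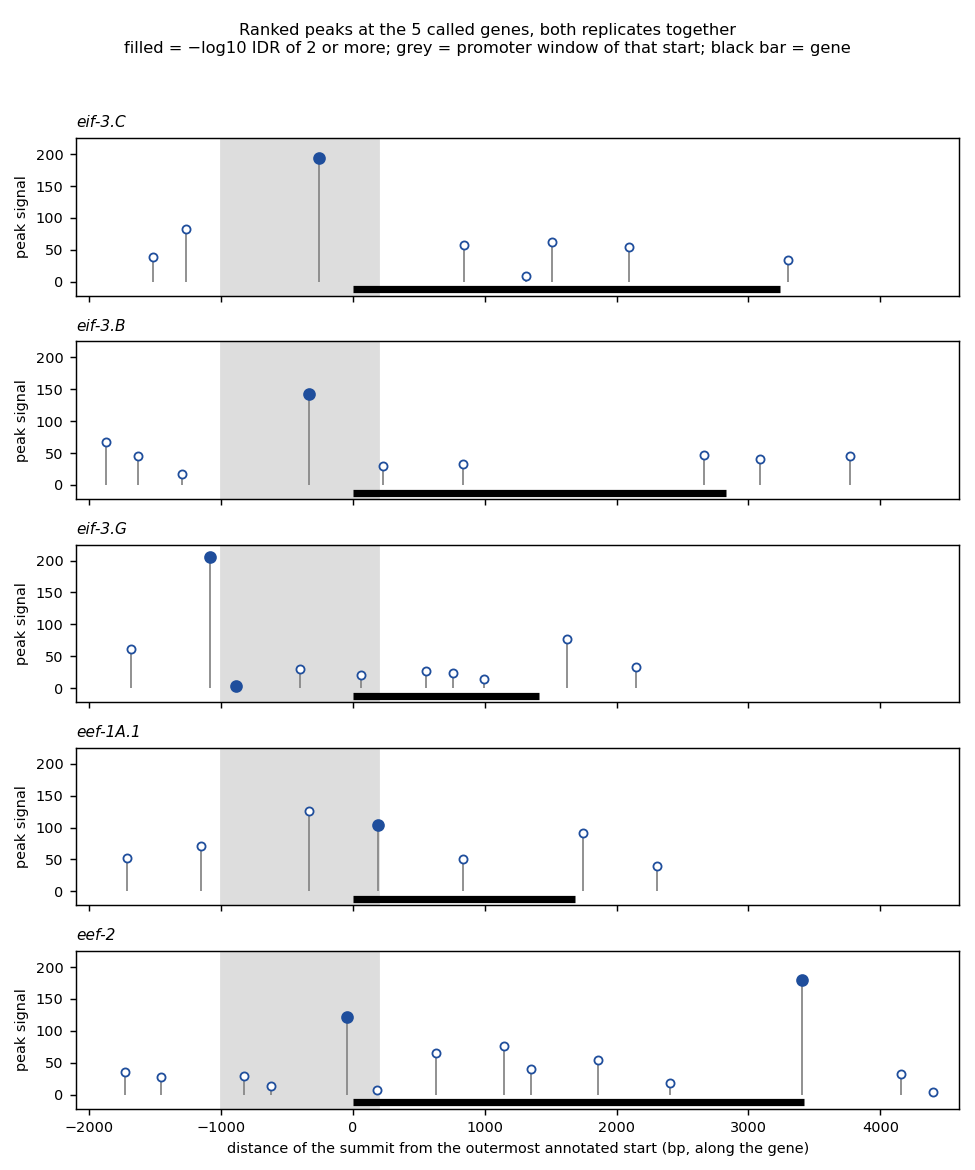
Signal of every ranked peak (vertical axis, authors' value) in the joint list against the distance of its summit from the outermost annotated start in bp along the gene (horizontal axis) for the 5 called genes. Filled points have a −log10 IDR of at least 2, the grey band is the promoter window of that start and the black bar the gene. eif-3.C and eif-3.B each have 1 filled summit at 193 and 143, eef-2 has another at its 3′ end at 179, and the filled point of eif-3.G at 3.21 stands beside a peak of 205 outside the band.

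Of the 11 eIF3 subunit genes, 7 had a summit (63.6%, compared with 69.8% of all genes) and 3 were called (27.3%, Wilson interval 9.75 to 56.6, compared with 2.48%). eif-3.C, a core subunit gene, had the highest signal of the 63 genes in the joint list and in replicate 2. In replicate 1 eef-1A.1, eif-3.B and eif-2A stood above it. Its summit, 257 bp upstream at I:9979729-9980108, had 193 in the joint list, 63.6 in replicate 1 and 125 in replicate 2. Its −log10 IDR was 2.93 in the joint list, 3.20 in replicate 2 and 0.25 in replicate 1. That summit was the only one in its window, lay between genes and was in no other gene's window. The same-strand gene sys-1 ends 400 bp upstream of eif-3.C, so the summit lies in a short gap between these genes. In percentiles eif-3.C stood at 98.0 in replicate 1 and 99.8 in replicate 2, so its rank was high in both.

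eif-3.B, the gene of another core subunit, had 143 in the joint list, 80.0 in replicate 1 and 61.6 in replicate 2. The summit lay 331 bp upstream at II:14794883-14795262, between genes and in no other window. Its −log10 IDR was 2.77 in the joint list, 2.15 in replicate 1 and 1.71 in replicate 2. The replicate summits fell 319 and 332 bp upstream.

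The call of eif-3.G differs in kind. The called summit lay 887 bp upstream in coding sequence of the neighbour lips-10 at II:8441690-8442069, with a signal of only 3.21 and a −log10 IDR of 3.49. It overlaps a peak of signal 205 whose summit is outside the window, and neither replicate has a summit of its own there. The strongest summit in the eif-3.G window, 402 bp upstream, had 30.6 and a −log10 IDR of 0.27. In the replicates the highest values were 30.9 and 33.3, at the 64.0th and 79.5th percentiles.

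The other eIF3 genes were not called. eif-3.E had 84.8 in the joint list, 29.7 in replicate 1 and 43.9 in replicate 2, and eif-3.F had 74.9, 37.2 and 34.7. eif-3.J and eif-3.H followed at 69.8 and 63.3 in the joint list. eif-3.D and eif-3.I had no summit in any list, while eif-3.K (40.7) and eif-3.L (36.2) had one in replicate 2 alone. Subunits of the same complex thus ran from the 99.5th percentile to no summit.

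None of the 3 eIF2 subunit genes, the 5 eIF2B genes or the 6 other initiation factor genes was called, which with 2.48% of all genes called says little about groups of this size. eif-2gamma and eif-2beta had 72.0 and 66.0 in the joint list, and eif-2alpha, whose protein is the phosphorylation target of stress kinases, had no summit in any list. All 5 eIF2B genes had a summit, where 69.8% of all genes had one, from 35.3 at eif-2Bepsilon to 80.4 at eif-2Bgamma. The eif-2Bgamma summit lay 154 bp from the small RNA gene sup-39, inside coding sequence of C15F1.5. Small RNA genes are here those annotated as tRNA, snoRNA, snRNA or rRNA. eif-2A, for a factor that can deliver tRNA without eIF2 in mammalian cells, had 77.5 in the joint list, 65.7 in replicate 1 and 33.4 in replicate 2, a replicate 1 rank at the 98.3rd percentile and a replicate 2 rank at the 79.7th. eif-6, which keeps large ribosomal subunits apart from small ones, and eif-4A3, a helicase of the exon junction complex, had no summit in any list.

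The 32 synthetase genes cover all 20 amino acids, with more than 1 gene for 11 of them. A summit was found at 26 genes (81.3%, compared with 69.8% of all genes), with a median signal of 60.8 in the joint list. The highest was iars-2, for an isoleucine enzyme, with 92.6 in the joint list, 34.8 in replicate 1 and 53.9 in replicate 2 and a −log10 IDR of 1.04. pars-1 for proline followed at 88.8 (40.2 and 38.1), vars-1 for valine at 85.0 (46.8 and 36.2), mars-1 for methionine at 83.8 (40.8 and 39.4), ears-1 for glutamate at 83.1 (51.2 and 26.3) and sars-1 for serine at 80.2 (48.0 and 29.7). All 6 stood above the 90th percentile of genes in the joint list, and the highest −log10 IDR in their windows ran from 0.66 to 1.27. The 0.66 of mars-1 belongs to a weaker summit, and its strongest summit had 0.28.

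In replicate 1, 7 of the 32 synthetase genes (21.9%) were at or above the 90th percentile, compared with 10.0% of all genes. They were tars-1, ears-1, rars-2, kars-1, sars-1, vars-1 and sars-2. In replicate 2 there were 4 others (12.5%, compared with 10.0%), iars-2, yars-2, iars-1 and fars-1. Thus 0 of 32 synthetase genes were there in both, which says little where 4.3% of all protein-coding genes were. fars-1, a phenylalanine enzyme gene, showed the widest gap among the 49 members with a summit in each replicate list, from the 35.7th percentile in replicate 1 to the 91.4th in replicate 2. At the low end were dars-2 at 28.8, hars-1 at 36.2 and lars-1 at 36.3 in the joint list.

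Levels can be set side by side for genes of the same amino acid. The aspartate genes dars-1 and dars-2 had 68.3 and 28.8 in the joint list, the leucine genes lars-2 and lars-1 had 61.3 and 36.3, and the isoleucine genes iars-2 and iars-1 had 92.6 and 74.6. In replicate 1 the isoleucine genes were close in rank, at the 73.1st and 71.1st percentiles. By RefSeq product names, 10 synthetases are cytoplasmic and 3 mitochondrial, and 19 names state no compartment. A summit was found at 7 of the cytoplasmic (70%), all 3 of the mitochondrial and 16 of the remaining genes (84.2%). With 69.8% of all protein-coding genes having a summit, these counts say little about a difference by compartment. aars-2, cars-1, nars-2, qars-1 and wars-1 had no summit in any list, and yars-1 had one in replicate 2 (24.2) and in the other joint list (41.9).

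**Figure D3:**
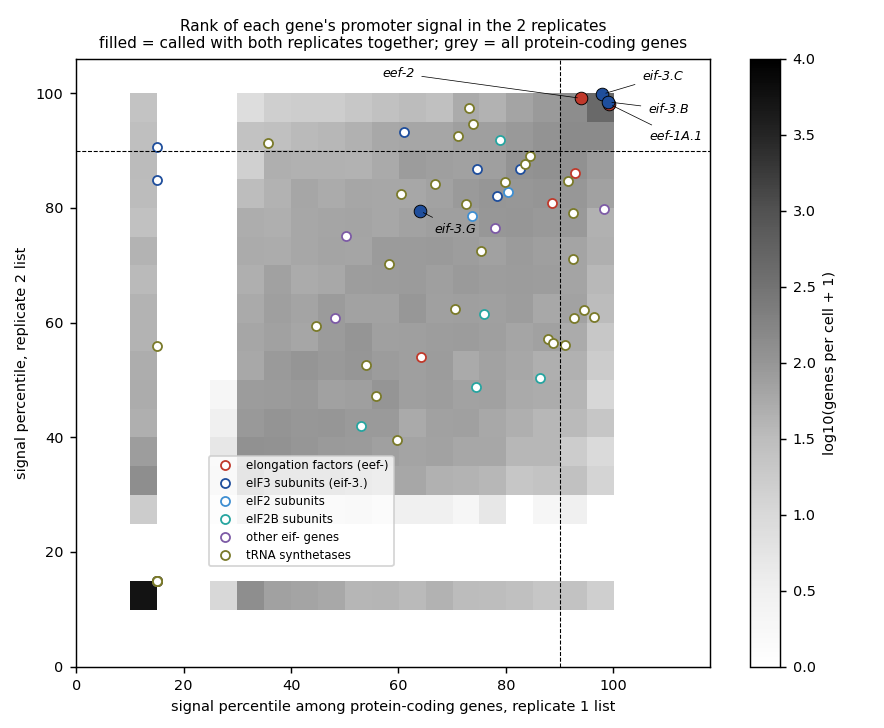
Signal percentile of each gene among protein-coding genes in the replicate 1 list (horizontal axis) and the replicate 2 list (vertical axis), with all genes as a grey density, members as points and dashed lines at the 90th percentile. Filled points are genes called with both replicates together. eif-3.C, eif-3.B, eef-1A.1 and eef-2 are the only members beyond both lines, and genes without a summit lie at the lowest rank near 15.

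Over the 49 members with a summit in each replicate list, the signals of the replicates had a Spearman rho of 0.29 and a Pearson r of log2 signal of 0.41. The same values over 13381 protein-coding genes were 0.416 and 0.467. The genes share libraries and are not replicates, so these are descriptions. The median gap between the replicate percentiles was 12.6 for the members and 13.6 for all genes.

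The strongest summit lay upstream of the start at 41 of 49 members (83.7%), with 82.1% for all genes. It lay within the 400 bp before a start at 26 members (53.1%), compared with 36.5% of all genes, and the median position was 268 bp upstream, compared with 350 bp. By annotation, 22 of the 49 summits were between genes, 15 in coding sequence, 8 in introns and 4 in UTRs, in the gene itself or a neighbour. Many of these genes have close neighbours: 28 of 63 (44.4%) have a start on the other strand within 1000 bp upstream, compared with 17.5% of all genes. The strongest summit was shared with another gene's window at 20 members (40.8%), compared with 22.3% of all genes. A gene on the same strand ended within 500 bp upstream at 17 members (27%), as in operons, compared with 18.1%. Of the cytosolic ribosomal protein genes described below, 59.3% have such an opposite start and 11.1% such a same-strand gene. Among those with a summit, the strongest lay within 400 bp upstream at 55.7% and in a shared window at 57.1%. Close opposite starts, shared windows and summits within 400 bp are thus not particular to the members.

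**Figure D4:**
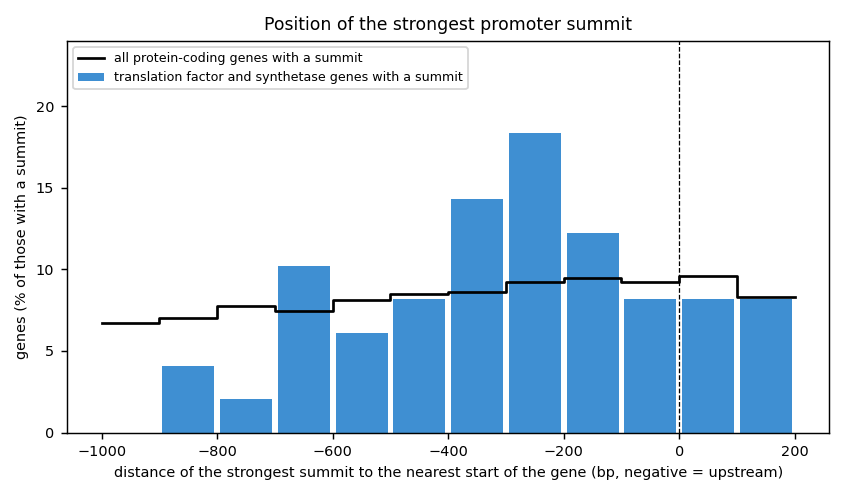
Share of genes with a summit (vertical axis, percent) by distance of the strongest summit from the nearest start in 100 bp bins (horizontal axis, negative is upstream). Bars are the 49 members with a summit and the line is all protein-coding genes. The tallest bar, 18.4% of members, is 200 to 300 bp upstream, where the line is at 9.23%.

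Motifs were searched on both strands within 100 bp of the strongest summit. An X-box match was present at 1 of 49 members (2.04%), rars-2, a mitochondrial arginine enzyme gene that was not called, and at 1.68% of all genes with a summit. The TATA box letters TATAAA occurred at 5 members (10.2%), among them eif-3.B, and at 24.0% of all genes. An X-box can contain these letters, and the rars-2 window does not hold them. The B box core GTTCGANNC of tRNA genes was at 0 members and at 1.63% of all genes. Median GC content was 37.3% at the members and 35.3% at all genes. None of the 5 called members had its strongest summit within 200 bp of small RNA genes. The share of all called genes was 15.4%, so 0 of 5 says little. For eef-1A.1 and eif-3.G the strongest summit did not carry the call in the main list. Their called summits lay 59038 and 105329 bp from the nearest small RNA gene.

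Within gene bodies but outside promoter windows, 3 members had a called summit (4.76%), compared with 1.67% of all genes. Beside eef-2 they were ears-1, in coding sequence with a signal of 109, and fars-1, in an intron with 195. The fars-1 summit was called in replicate 1 (97.2) and replicate 2 (101) and lay 42 bp from the small RNA gene T08B2.13. fars-1 and eef-1A.2 are named for these peaks, which were chosen after their values were seen.

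Further translation genes outside the naming rule were taken from a list, of which 25 of 29 names were in the annotation. Of these, 3 were called (12%, Wilson interval 4.17 to 30.0, compared with 2.48% of all genes). The list was chosen with earlier results of these data known, so its share is a description only. larp-1, for an mRNA-binding La-related protein, had 266 in the joint list, 155 in replicate 1 and 122 in replicate 2. iff-2, for the hypusinated factor eIF5A, had 154, 69.7 and 88.4, and both genes were called in each replicate. erfa-3, a release factor gene, had 98.6 at a −log10 IDR of 2.06, and was called in the joint list but in neither replicate. The strongest summits of larp-1, iff-2 and erfa-3 also lie in the windows of wip-1, F54C9.14 and math-33, in that order. In the other joint list 2 of the 25 genes were called (8%, compared with 2.24% of all genes). Of 81 cytosolic ribosomal protein genes (rpl-, rps- and rla- names) 23 were called (28.4%), and 31 (38.3%) were at or above the 90th percentile in both replicates, compared with 2.48% and 4.3% of all genes.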

How the data were processed

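ChIP-seq peaks from 2 biological replicates of 1 group were analysed. The authors deposited ranked and thresholded peak lists on assembly ce11, per the deposited text files, for each replicate and for both together (8 lists in all). Column 7 of the authors' lists is a peak signal whose scaling is not stated, and column 12 of the ranked lists was read from its values as the deposited −log10 IDR. Every thresholded list matched, peak by peak, the ranked peaks at 2 or above. What aligner, peak caller and read filters made them, and whether the control was used, is not given in the sources used here.

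For each of 19973 genes, the highest signal and the highest −log10 IDR among summits in the promoter window were taken separately. Signal percentiles were made within each list, with genes without a summit at the lowest rank. Whether the replicates came from separate cultures is not stated in the labels. No p-value was computed. Counts stand beside the same counts over all protein-coding genes, with Wilson 95% intervals that cover counting error only. Product names came from RefSeq and matched all 63 genes.

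The members and lists were chosen with earlier results of these data known. The genes named are the called members, the 15 with the highest joint signal, the 6 with the highest −log10 IDR below 2, the 4 with the lowest signal, those without a summit and called genes of the further list. Others are named as members of small groups or as examples. Alternatives were other lists, windows, IDR levels and summit assignments. The scripts were tested on simulated data. The tools were matplotlib 3.10.9, scipy 1.17.1, pandas 2.3.3 and numpy 2.4.6 under Python 3.11.15.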

Additional observations from a re-analysis of the deposited data

How the results depend on the processing

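The count of 5 called genes was 4 to 6 in the other joint list, with windows from 500 or 2000 bp upstream, with the outermost or nearest start only, by peak overlap, without summits near small RNA genes, without shoulder peaks and at an IDR of 0.05. The share of all protein-coding genes called, 2.48% in the main setting, moved more widely. Across these settings it was lowest with the 500 bp window (1.74%, 4 members called). It was 3.58% with the 2000 bp window and highest at an IDR of 0.05 (6.0%), each with 6 members called. With 1 replicate left out, 1 gene was called in either case, with 0 elongation factor genes and 1 initiation factor gene (eif-3.B in replicate 1, eif-3.C in replicate 2). Of all genes, 1.08% were called in replicate 1 and 0.976% in replicate 2. At an IDR of 0.001 only eif-3.G remained (background 0.676%), so 1 gene, 0 elongation factor genes and 1 initiation factor gene. Requiring a call in both replicate lists left 0 genes (background 0.641%), 0 elongation factor genes and 0 initiation factor genes. Taking the call from the strongest summit alone, an alternative chosen after seeing the data, left 3 genes (background 2.45%), with 1 elongation factor gene (eef-2). Leaving out shoulder peaks, also chosen after seeing the data, removed eif-3.G (background 2.45%). The window from 2000 bp upstream added 1 synthetase gene, iars-2, and an IDR of 0.05 added eef-1G. The median percentile of 72.2 was 72.4 to 73.1 with 1 replicate left out, 74.9 with the 2000 bp window, 74.6 from the outermost start and 64.1 when each summit was given to the nearest start only. The cause of these shifts was not tested. No paired analysis was possible because there is 1 group. Depth is unknown, which limits what the missing summits show.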
